A study of Mus musculus with 4 samples.

Results

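Among thymocytes profiled droplet by droplet, 114 of 8641 barcodes with at least 1000 UMIs (unique molecular identifiers, each standing for 1 captured RNA molecule) carried 3 or more UMIs of C1qa, C1qb, C1qc and Lyz2 in sum. These barcodes are called carriers, and the UMIs of the 4 genes their macrophage sum. The 4 genes chose the carriers, so their values are a description, and so are all other genes of the same barcodes. Carriers numbered 100 of 4414 barcodes in the autonomy library and 14 of 4227 in the turnover library. They were set against the barcodes of their own library with a macrophage sum of 0, which were 4212 in autonomy and 4181 in turnover.

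Wild type mouse thymi had been transplanted 28 days earlier, in an autonomy condition and a turnover condition. Thymus autonomy is the state in which thymocytes persist without new progenitors, and turnover the state in which incoming progenitors take the place of older thymocytes. The sort took thymocytes of the DN3-DN4 stages (double negative for CD4 and CD8), ISP cells (immature single positive) and DP cells (double positive), which were profiled with the 10x Genomics 5′ kit, with a matched V(D)J library of rearranged T cell receptor chains per condition. The labels describe neither the hosts nor the number of animals, and each condition had 1 library per assay, so there is no spread between animals, no test was made, and library and condition cannot be told apart. Every interval given is an exact or approximate 95% one for counting error alone, with barcodes and UMIs taken as independent.

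Thymic macrophages engulf the many thymocytes that die during selection. C1q, whose chains C1qa, C1qb and C1qc encode, is the first component of the classical complement pathway and is made mainly by macrophages in tissues. Lyz2 encodes the lysozyme of macrophages and other myeloid cells. A thymocyte that carries such RNA in a droplet can have shared that droplet with a macrophage, a piece of one, or RNA free in the suspension, or it can have been inside a macrophage.

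The autonomy library held 4587 barcodes and 16388810 UMIs, and the turnover library held 4374 barcodes and 20163286 UMIs. The autonomy library held both barcodes with Xist, the RNA of the inactive X chromosome, and barcodes with Y-linked transcripts, while the turnover library had no Xist UMI. The gene expression tables shared 31 barcode sequences. Of these 2 were autonomy carriers, and their turnover namesakes had 0 UMIs of the 4 genes. No turnover carrier was among them.

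Carriers were more frequent in autonomy. Their share was 2.27% of barcodes in the autonomy library (exact interval 1.85 to 2.75) and 0.331% in the turnover library (0.181 to 0.555), a ratio of 6.84 (3.92 to 11.9). Without the 31 shared barcode sequences the ratio was 6.70. With C1qa, C1qb and C1qc alone it was 10.4. In autonomy the counts thinned out slowly over the range of the sum, with 28 barcodes at 3 to 4 UMIs, 26 at 5 to 9, 23 at 10 to 19 and 23 at 20 or more. In turnover these bands held 8, 2, 1 and 3 barcodes. Just outside the threshold, 29 autonomy and 7 turnover barcodes had a sum of 2. A sum of 1 was seen in 73 autonomy and 25 turnover barcodes.

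**Figure D1:**
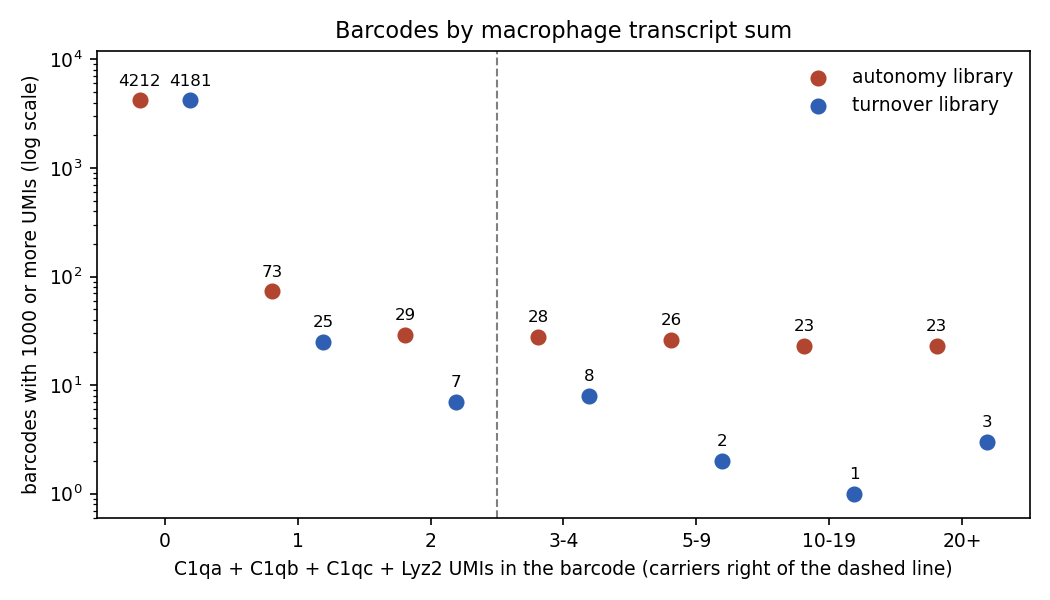
Barcodes with 1000 or more UMIs (y axis, log scale) by their summed UMIs of C1qa, C1qb, C1qc and Lyz2 (x axis), with the autonomy library in red and the turnover library in blue; each point is labelled with its count. Autonomy held 23 barcodes with 20 or more such UMIs and turnover 3, while 4212 and 4181 barcodes held none.

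The macrophage sum ran from 3 to 138 in autonomy carriers with a median of 8, and from 3 to 33 in turnover carriers with a median of 4. Lyz2 gave 448 of 1458 UMIs of the sum in autonomy carriers, C1qb 354, C1qa 352 and C1qc 304. In turnover carriers Lyz2 gave 50 of 138 UMIs, C1qb 43, C1qa 27 and C1qc 18. All 4 genes were detected in 47 of 100 autonomy carriers and in 5 of 14 turnover carriers. The 4 turnover carriers with 10 or more UMIs had sums of 33, 24, 23 and 19 among 2337, 2183, 2866 and 1795 UMIs in all. The sum thus made up at most 14.1 of every 1000 UMIs of a turnover carrier and at most 42.6 of every 1000 UMIs of an autonomy carrier.

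Of 100 autonomy carriers 1 lacked any C1q UMI, and of 14 turnover carriers 3 did. The 3 turnover barcodes held 4, 3 and 3 Lyz2 UMIs and no Cd74, Apoe or H2-Aa UMI. They also held 9, 3 and 13 UMIs of Il2ra, which encodes CD25, a surface marker of DN3 thymocytes. All 25 Il2ra UMIs of the turnover carriers lay in these 3 barcodes. Of the 3, 1 had no receptor contig and another held 2 productive TRB chains. The same held just outside the threshold. Among the 32 turnover barcodes with a sum of 1 or 2, Lyz2 made up 76.9% of the sum (60.7 to 88.9), Il2ra was 18.7-fold above the level of barcodes with a sum of 0 (16.0 to 21.7), and Cd8a was at 0.277-fold (0.232 to 0.327). Among the 102 autonomy barcodes with a sum of 1 or 2, Lyz2 made up 22.1% of the sum (15.4 to 30.2), Il2ra was at 1.59-fold and Cd8a at 1.09-fold. In turnover a low sum was therefore mostly Lyz2 in barcodes with Il2ra, and in autonomy it was mostly C1q. The depth of the band with a sum of 1 or 2 differed as well. Its median was 7830.5 UMIs in turnover, against 2105 at a sum of 0, and 2432.5 in autonomy, against 2421.

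Further macrophage markers accompanied the sum. Cd74, the invariant chain of MHC class II, had 1971 counts per 1000000 UMIs (CPM) in autonomy carriers and 23.8 CPM in barcodes with a sum of 0, an 82.8-fold difference (72.9 to 94.3). Apoe, the lipid carrier apolipoprotein E, had 2358 CPM in autonomy carriers and 4.10 CPM at a sum of 0, a 574-fold difference (445 to 753). In turnover Cd74 had 1947 CPM in carriers and 2.13 CPM at a sum of 0. Turnover Apoe had 1005 CPM in carriers and 6.89 CPM at a sum of 0. A Cd74 UMI was found in 74% of autonomy carriers (64.3 to 82.3) and in 1.69% of autonomy barcodes with a sum of 0 (1.32 to 2.12). The median depths of these sets were 2770.5 and 2421 UMIs. After each barcode was thinned to 1000 UMIs the shares were 53% and 0.689%. An Apoe UMI was found in 87% of autonomy carriers and in 1.04% of autonomy barcodes at 0, and after thinning in 73% and 0.451%.

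Per barcode, Cd74 ran from 0 to 64 UMIs in autonomy carriers with a median of 2, and Apoe from 0 to 49 with a median of 5. No single barcode held the bulk of either, as the highest gave 9.45% of the Cd74 UMIs and 6.05% of the Apoe UMIs. In the 14 turnover carriers Cd74 lay in 5 barcodes, with 41, 12, 20, 35 and 16 UMIs. The 4 carriers with a sum of 10 or more were among these 5. Their Apoe UMIs were 18, 12, 2 and 8.

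Genes were compared between carriers and barcodes with a sum of 0 where carriers held, or were expected to hold at the other set's level, at least 20 UMIs, and called where the ratio of CPM was 2-fold or more. In autonomy 119 of 3731 genes were higher in carriers (3.19%) and 57 lower (1.53%), with a median ratio of 1.03. In turnover, where 14 carriers gave few UMIs, 23 of 537 genes were higher (4.28%) and 14 lower (2.61%), with a median ratio of 0.970. With a minimum of 20 UMIs over both sets, the rule first chosen, 790 of 10839 autonomy genes were higher (7.29%) and 1392 lower (12.8%), and 1585 of 10710 turnover genes were higher (14.8%) and 3883 lower (36.3%). Most genes under that rule had few expected UMIs in carriers, with a median of 9.78 in autonomy and 1.41 in turnover, and 788 autonomy and 3350 turnover genes had none there. Counts of listed genes below therefore use the minimum in carriers. A gene near 0 elsewhere could meet that minimum only through its UMIs in carriers and then had to be higher, which applies to most macrophage genes counted, so their counts and medians describe and support nothing.

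**Figure D2:**
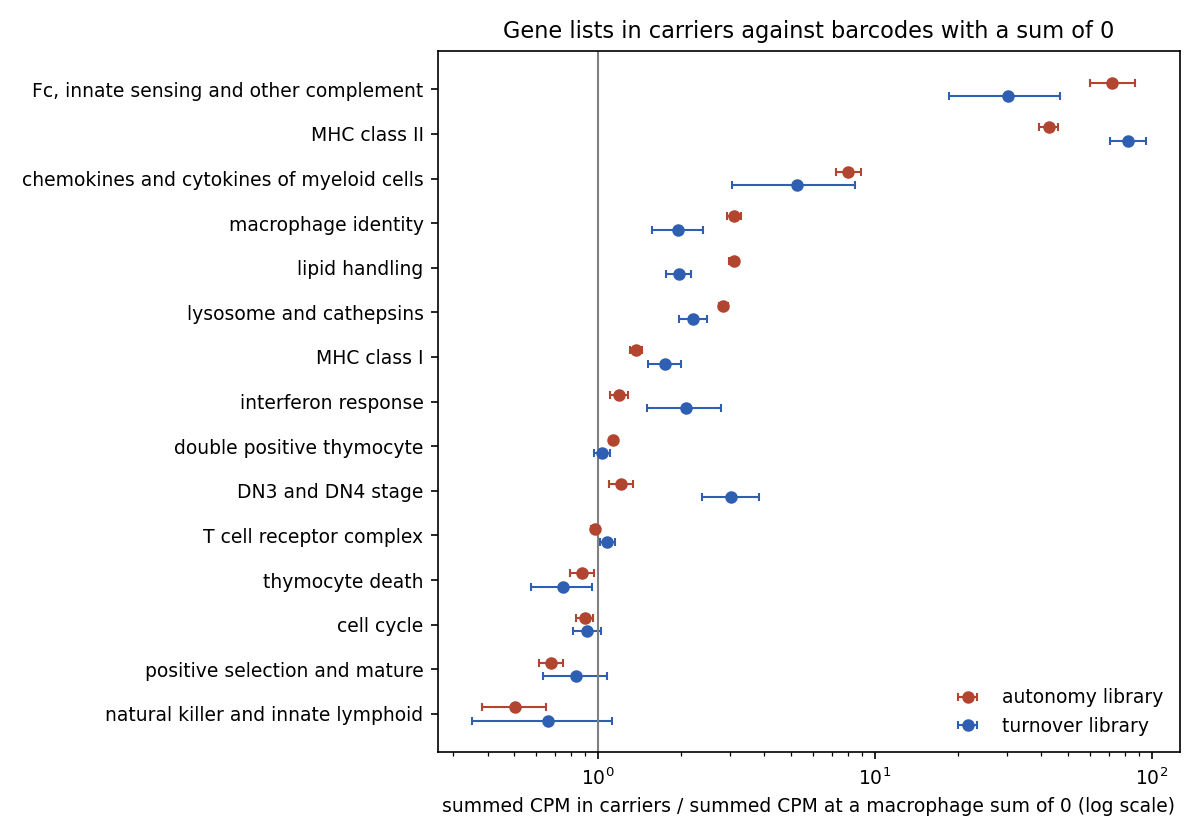
Ratio of the summed CPM of each gene list in carriers to that in barcodes with a macrophage sum of 0 (x axis, log scale; bars are exact 95% intervals for counting error), with autonomy in red above turnover in blue. Fc and innate genes (72.1-fold and 30.2-fold) and MHC class II genes (42.5-fold and 82.3-fold) stood furthest to the right, and the DP list lay near 1 (1.13 and 1.04).

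Many genes of macrophage identity were far higher in autonomy carriers. Of 28 listed members 13 had enough UMIs, and 12 of these were at least 2-fold higher and none lower, with a median ratio of 133. Csf1r, the receptor for the growth factor that sustains macrophages, had 40 UMIs in 28 autonomy carriers and 5 UMIs in all barcodes at 0. Fcer1g and Tyrobp, signalling adaptors of myeloid receptors, were 184-fold (130 to 264) and 56.8-fold higher (44.0 to 73.6). Vcam1, an adhesion molecule found on tissue macrophages that take up dying cells, was 681-fold higher (279 to 2158). Spic, a transcription factor of iron-handling macrophages, had 17 UMIs in 15 carriers and 2 UMIs at 0. Laptm5, a lysosomal protein found in T cells too, was at 1.07-fold. Some markers were absent or scarce. Itgam and Lyz1 had 0 UMIs in autonomy carriers and Cd163 had 1. Adgre1 had 6 UMIs in 5 autonomy carriers, against 0 UMIs in autonomy barcodes at 0. Turnover carriers held 1 UMI each of Csf1r, Adgre1, Mrc1 and Spi1, and 12 of Fcer1g, and 1 member, Laptm5, had enough UMIs to compare there (0.831-fold).

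All 6 MHC class II genes with enough UMIs were higher in autonomy carriers, and all 4 in turnover carriers. The summed level of the list was 42.5-fold higher in autonomy (39.3 to 46.0) and 82.3-fold higher in turnover (70.7 to 95.5). H2-Aa, an alpha chain of MHC class II, had 191 UMIs in 49 autonomy carriers against 79 UMIs at 0, and 43 UMIs in 5 turnover carriers against 2 UMIs at 0. H2-DMb1, which helps to load peptides, was 108-fold higher in autonomy carriers (55.0 to 225). H2-Oa, with 8 UMIs too few for the count, was at 0.848-fold.

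Lysosomal genes were higher in 14 of 21 members in autonomy carriers, with none lower and a median ratio of 4.13. Ctsb, the protease cathepsin B, was 5.41-fold higher in autonomy carriers (4.78 to 6.10) and 4.996-fold higher in turnover carriers (3.61 to 6.75). Ctss, the cathepsin that trims the invariant chain, was 26.7-fold higher in autonomy carriers (21.5 to 33.1). Lgmn, a lysosomal endopeptidase, was 77.6-fold and Cd63, a membrane protein of late endosomes, 189-fold higher in autonomy carriers. Genes that thymocytes express as well were nearer to 1, such as Ctsl at 1.37-fold and Lipa at 1.08-fold.

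In the lipid and iron list 5 of 7 members were higher in autonomy carriers. Ftl1 and Fth1, the chains of the iron store ferritin, were 2.37-fold (2.24 to 2.499) and 2.48-fold higher (2.35 to 2.63) and detected in all 100 carriers. Pltp, a phospholipid carrier, was 41.4-fold and Nr1h3, a sterol-sensing nuclear receptor, 94.6-fold higher. Of the chemokine and cytokine list 5 of 6 members were higher. Ccl8, a chemokine, had 122 UMIs in 31 autonomy carriers against 11 at 0, and 2 UMIs in 1 turnover carrier. Cxcl9, an interferon-induced chemokine, had 32 UMIs in 14 autonomy carriers, against 0 in turnover carriers. Il1b, an inflammatory cytokine, had 9 UMIs, and Tnf and Il10 had 0 in carriers of either library.

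Each of the 7 Fc and innate genes with enough UMIs was higher in autonomy carriers. C3, the central complement component, had 42 UMIs in 19 autonomy carriers against 1 UMI at 0, and Clec4n, a lectin receptor, had 46 against 5. Of genes for the uptake of apoptotic cells 1 of 3 was higher. Axl, a receptor for phosphatidylserine-bound ligands, was 42.3-fold higher (24.1 to 74.0). Timd4, a phosphatidylserine receptor, had 14 UMIs in 11 autonomy carriers and none at 0, and Mertk 6 and none.

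The 12 genes furthest above the barcodes at 0 in autonomy, among genes with at least 100 UMIs over both sets, were Apoe, Ccl8, Fcer1g, H2-Ab1, H2-Aa, H2-Eb1, Cd74, Lgals3, Tyrobp, Grn, Ctss and Blvrb. Within the 100 autonomy carriers, the log-scaled levels most alike the macrophage sum among 2883 genes were those of Ctss (Pearson r = 0.67), Apoe (0.66), Psap (0.60), Tyrobp (0.58) and H2-K1 (0.55), followed by Ctsb, Ftl1, Fcer1g, Timp2 and Fth1 (0.53 to 0.47). All points share 1 library and total UMIs, so these values are descriptive. None of the first 12 and none of these 10 was a thymocyte receptor or recombination gene.

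Markers of other cell types that the sort could have let through were in part at 0 in autonomy carriers and in part near their level at a sum of 0. Autonomy carriers held UMIs of 11 of 16 dendritic cell genes, 4 of 16 monocyte and granulocyte genes, 4 of 12 B cell genes, 6 of 12 natural killer genes, 5 of 12 epithelial genes, 2 of 12 stromal and endothelial genes and 0 of 9 red cell genes. Of the dendritic cell markers Flt3, Xcr1 and Siglech had 0 UMIs, Itgax had 5, Batf3 5, Clec9a 2 and Zbtb46 1, and 1 of 3 members with enough UMIs, Irf8, was higher (10.0-fold, 6.48 to 15.1). The granulocyte genes S100a8, S100a9, Csf3r and Elane were at 0, while Ly6c2 had 1 UMI and Ccr2 4. Cd79a and Ms4a1 of B cells, Ncr1 and Klrb1c of natural killer cells, Krt5, Krt8, Psmb11 and Foxn1 of the thymic epithelium, Col1a1, Col3a1, Dcn and Cdh5 of stroma and vessels, and Hba-a1, Hbb-bs and Alas2 of red cells were all at 0. Other members were detected. Ighm had 162 UMIs (1.25-fold, 1.06 to 1.46) and Cd79b 13 (1.11-fold). Gzma had 44 (0.564-fold, 0.409 to 0.759) and Nkg7 5 (0.216-fold). Cldn4 had 20 (0.977-fold), Ly75 9 (1.34-fold) and Pecam1 27 (1.04-fold), levels near those of the barcodes at 0. Bank1, a B cell adaptor, had 6 UMIs (27.2-fold, 8.13 to 82.7), and Pdgfrb 3 (8.01-fold, 1.504 to 27.7). What share these cell types had in the carriers' RNA was not tested.

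Class II genes also split the carriers. Among the 46 autonomy carriers with a sum of 10 or more, 31 held 3 or more Cd74 UMIs, 2 held 2, and 13 held 0 or 1. H2-Aa averaged 4.32 UMIs in the 31 carriers with Cd74 (3.62 to 5.12) and 0.308 in the 13 without (0.0838 to 0.788). H2-Ab1 averaged 4.06 and 0.154 UMIs in the same sets. C1qa averaged 6.65 UMIs in the carriers with Cd74 (5.77 to 7.62) and 5.46 in those without (4.27 to 6.89), and Lyz2 9 and 8.38. Apoe averaged 15.97 UMIs with Cd74 and 10.7 without. Fcer1g averaged 3.19 UMIs with Cd74 (2.60 to 3.89) and 1.62 without (0.99995 to 2.47), and Rag1 4.42 (3.71 to 5.22) and 2.23 (1.49 to 3.20). Intervals thus overlapped for C1qa and Lyz2, and not for Apoe, Fcer1g and Rag1, and the split was drawn after the values were seen. Some UMIs were clumped. In the carriers with Cd74, a single barcode held 13 of the 99 Fcer1g UMIs. Single barcodes held 19, 17, 14 and 13 of the 137 Rag1 UMIs there. The intervals are therefore too narrow, and whether they overlap does not tell the sets apart.

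Class II transcripts outside the carriers lay in few barcodes. In autonomy 3 barcodes with a sum of 0 held 110, 95 and 50 of the 371 Cd74 UMIs of that set. The first held 32 Siglech, 72 Bst2 and 43 Irf8 UMIs, genes high in plasmacytoid dendritic cells. The third held 65 Cst3 UMIs and no Cd8a. Without these 3 barcodes the Cd74 ratio in autonomy was 265, that of H2-Aa 262 and that of Fcer1g 321.

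Thymocyte transcripts were as abundant in autonomy carriers as in barcodes without macrophage RNA. Cd8a, a chain of the CD8 coreceptor, ran from 0 to 30 UMIs in autonomy carriers with a median of 8. Its level was 2404 CPM in autonomy carriers and 2371 CPM at a sum of 0, a ratio of 1.01 (0.945 to 1.09), and between 0.941 and 0.959 with other scalings. Rag1, which cuts receptor genes for rearrangement, ran from 0 to 19 UMIs with a median of 3. It had 1060 CPM in autonomy carriers and 825 CPM at 0, a ratio of 1.28 (1.15 to 1.42). With barcodes above the 95th percentile of total UMIs left out, Rag1 was at 1.06 and Cd8a at 0.872. A Cd8a UMI was found in 96% of autonomy carriers (90.1 to 98.9) and 96.2% of barcodes at 0 (95.6 to 96.8), and after thinning in 87% and 87.7%. A Rag1 UMI was found in 88% of autonomy carriers and 80.0% of barcodes at 0, and after thinning in 64% and 59.4%.

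The amount of thymocyte RNA was similar over the bands of the macrophage sum. Cd8a averaged 7.11 UMIs per autonomy barcode at a sum of 3 to 4 (6.15 to 8.17), 8.08 at 5 to 9, 9.91 at 10 to 19 and 8.22 at 20 or more (7.09 to 9.48), against 8.78 at a sum of 0. Rag1 averaged 3.32, 3.85, 4.13 and 3.30 in the same bands, against 3.06 at 0. Over these bands Apoe averaged 2.39, 3.81, 7.39 and 20.6 UMIs, and Cd74 2.68, 2.69, 8.61 and 14.5 UMIs.

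**Figure D3:**
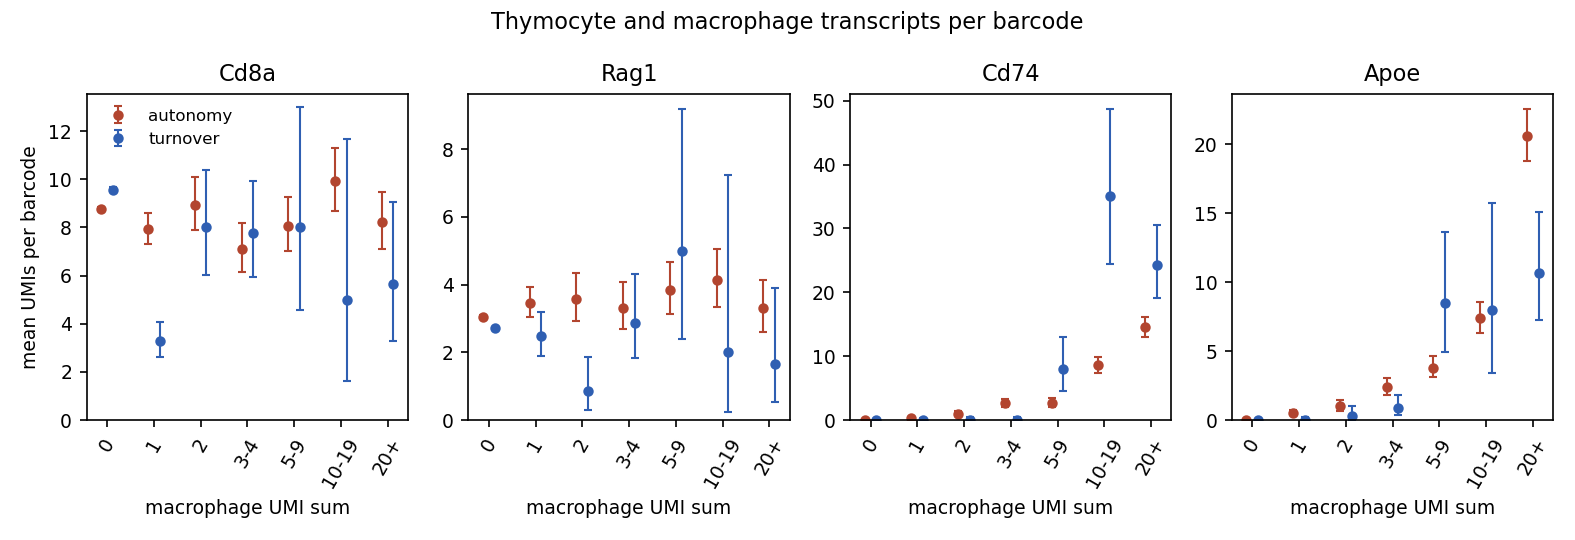
Mean UMIs per barcode of Cd8a, Rag1, Cd74 and Apoe (y axes, from 0) over bands of the macrophage sum (x axes), autonomy in red and turnover in blue, with exact 95% intervals for counting error. In autonomy Cd8a stayed between 7.11 and 9.91 UMIs over all bands with 3 or more, while Apoe reached 20.6 UMIs in the last band.

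In turnover Cd8a had 1570 CPM in carriers and 2027 CPM at 0, a ratio of 0.775 (0.630 to 0.943), and Rag1 628 CPM in carriers and 574 CPM at 0 (1.09, 0.782 to 1.49). Without the 3 carriers that lacked C1q the Cd8a ratio was 1.04 (0.820 to 1.29). TMM factors put turnover Rag1 at 0.907, on the other side of 1, and turnover Cd8a at 0.642. The 4 turnover carriers with a sum of 10 or more held 4, 6, 7 and 5 Cd8a UMIs and 3, 2, 0 and 2 Rag1 UMIs. Cd8a was found in 12 of 14 turnover carriers (85.7%) and 93.9% of barcodes at 0, and after thinning in 64.3% and 86.5%, at median depths of 2521 and 2105 UMIs.

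As a list, none of 19 DP genes was 2-fold higher or lower in autonomy carriers, with a median ratio of 1.19. Over all 3731 genes 3.19% were higher and 1.53% lower, so that count is near the share of all genes. Cd4, the other coreceptor, was at 1.42-fold (1.25 to 1.60), and Dntt, which adds bases at receptor junctions, at 1.26-fold. The ratio of 1.13 for the summed list would be lower by 0.09 on the log2 scale with TMM factors. In turnover carriers 1 of 14 DP genes was called, Myl10 (5.16-fold), and 14 of its 22 UMIs lay in 1 barcode.

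Several genes of selection and maturation were lower in autonomy carriers. In the list for positive selection and mature cells 5 of 9 members were at least 2-fold lower and none higher, and the summed level was at 0.678-fold (0.614 to 0.747). Nr4a1, an immediate early gene of receptor signalling, had 1 UMI in autonomy carriers, where the level at a sum of 0 gave 23.8 expected UMIs, a ratio of 0.042 (0.0011 to 0.234). Cd69, an early activation marker, was at 0.187-fold (0.0606 to 0.438) and Itm2a, a gene induced by selection signals, at 0.432-fold (0.295 to 0.611). The 32 Itm2a UMIs lay in 7 carriers. Klf2, a factor of mature T cells about to leave the thymus, was at 0.305-fold and Egr1 at 0.490-fold. Foxp1 (0.987-fold) and Cd27 (0.908-fold) were near 1. The immediate early list had 2 of 7 members lower, Egr1 and Ier2 (0.462-fold). Among receptor complex genes 2 of 17 were lower, Cd5 (0.342-fold, 0.221 to 0.506) and Cd2 (0.446-fold, 0.325 to 0.597), while Cd3e (0.953-fold), Lck (1.05-fold) and Thy1 (1.08-fold) were near 1, and the receptor complex list as a whole was at 0.974-fold (0.948 to 1.001). Ratios were also taken by band of the sum. Cd5 was at 0.312-fold (0.161 to 0.545) and 0.376-fold (0.200 to 0.644) in carriers with sums of 3 to 9 and of 10 or more, and Cd2 at 0.470-fold and 0.419-fold. Itm2a was at 0.743-fold with sums of 3 to 9 (0.497 to 1.07) and 0.0856-fold at 10 or more (0.0176 to 0.2504). It had 29 UMIs in 4 of 54 barcodes and 3 UMIs in 3 of 46 barcodes in these bands. The share of barcodes with Itm2a was thus similar, and the gap between the ratios rests on a few barcodes. In autonomy barcodes with a sum of 1 or 2 Cd5 was at 0.915-fold (0.701 to 1.17), Cd2 at 0.862-fold and Cd69 at 0.714-fold (0.422 to 1.13). In that band Nr4a1 (0.534-fold, 0.275 to 0.938), Itm2a (0.573-fold, 0.408 to 0.782), Ccr7 (0.348-fold, 0.113 to 0.817) and Pdcd1 (0.300-fold, 0.0616 to 0.881) had intervals below 1. These rest on few of the 102 barcodes, with 12 Nr4a1 UMIs in 5, 40 Itm2a UMIs in 8, 5 Ccr7 UMIs in 4 and 3 Pdcd1 UMIs in 3. Clumped UMIs, as of Nr4a1 and Itm2a, are not independent, so their intervals are too narrow. Turnover carriers held too few UMIs of most of these genes: 1 of 9 positive selection members there had enough, Cd27 at 0.549-fold.

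Genes of thymocyte death were not called in autonomy carriers, 0 of 8 in either direction, with a median ratio of 0.859. This count is near the share over all 3731 genes, 3.19% higher and 1.53% lower. Bax, a pore-forming death protein, was at 0.811-fold (0.598 to 1.07), and Fas, a death receptor, at 1.13-fold (0.838 to 1.4996). Bcl2l11, which drives the death of self-reactive thymocytes, had 10 UMIs, too few for that count, and was at 0.507-fold (0.242 to 0.937). In turnover carriers the 1 member with enough UMIs, Cycs, was lower (0.488-fold, 0.284 to 0.782). Of 18 cell cycle genes 1 was higher and 3 lower. The replication genes Mcm5 (0.426-fold), Hells (0.419-fold) and Mcm2 (0.463-fold) were lower, and Cenpe was 2.02-fold higher with 15 of its 27 UMIs in 1 barcode. Mcm5 had 17 UMIs in 5 carriers and Hells 13 in 7. With barcodes at 0 weighted to the carriers' depth, Mcm5 was at 0.565-fold and Hells at 0.567-fold, neither 2-fold lower. The summed cell cycle list was at 0.898-fold unweighted and 1.20-fold so weighted, and Top2a at 1.54-fold and 2.11-fold. Top2a was found in 8 autonomy carriers, and single carriers held 45, 37 and 28 of its UMIs. Both Top2a ratios thus rest on a few barcodes and do not describe the carriers as a set. Of 11 MHC class I genes H2-K1 (2.36-fold) and H2-D1 (2.03-fold) were higher. In turnover carriers the list for DN3 and DN4 stages was 3.04-fold higher (2.38 to 3.83), with its Il2ra UMIs in the 3 barcodes without C1q. The innate lymphoid list was at 0.504-fold in autonomy carriers (0.382 to 0.653), and the interferon list at 1.19-fold (1.10 to 1.29), with 1 of 7 members called, Irf7 (3.54-fold, 2.83 to 4.37). Notch3, the 1 called of 5 DN3 and DN4 genes in autonomy, was 3.89-fold higher (2.59 to 5.65). In turnover carriers the monocyte and granulocyte list was 2.32-fold higher (1.52 to 3.41), with 18 of 23 UMIs of Plac8 in 1 barcode.

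Of the 12 genes furthest below the barcodes at 0 in autonomy, all had 0 UMIs in carriers. Trbv17, a TCR beta variable segment, was at least 9.59-fold lower by a floor of 3 counts in the carriers as a group. That floor takes UMIs as independent, which does not hold for receptor segments. All 16 Trbv17 UMIs of turnover carriers lay in 1 barcode. The bound for Trbv17 is therefore too high, and a few barcodes could account for its absence. Chaf1a and Pdcd1 were at least 3.55-fold and 3.54-fold lower by the same floor. The others were Trav4-4-dv10, Tcrg-C2, Egr2, Ephx1, Trav3-3, Mettl1, Pacsin1, Cd163l1 and Tcrg-C1.

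Between the libraries, 934 of 3900 genes were at least 2-fold higher in autonomy carriers than in turnover carriers (23.9%) and 174 lower (4.46%), a split in which 14 turnover carriers with few UMIs take part. The 6 highest were Xist, Trbv29, Trbv13-1, Trbv31, Dtx1 and Phlda1. Xist and the 3 beta segments had 0 UMIs in turnover carriers. Dtx1, a Notch-induced ubiquitin ligase, had 111 UMIs in 54 autonomy carriers and 1 UMI in turnover carriers. Autonomy barcodes at 0 held 242 CPM of Dtx1 and turnover barcodes at 0 held 3.29 CPM. The lowest were Rrm2, Stmn1, Tcf25, Hmgb2, Rpl36a and Gm8186. Tcf25 had 80 UMIs in 47 autonomy carriers and 40 in 9 turnover carriers. All 41 Rrm2 UMIs of turnover carriers lay in 1 barcode. Barcodes at 0 differed in the same direction for Rrm2 (autonomy over turnover 0.510), Stmn1 (0.546), Hmgb2 (0.460), Rpl36a (0.561) and Gm8186 (0.631), but not for Tcf25 (1.41).

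Carriers had higher median and lower mean totals than barcodes at 0. Autonomy carriers held from 1021 to 28864 UMIs with a median of 2770.5, against 2421 at a sum of 0. The 46 carriers with a sum of 10 or more had a median of 3189.5 UMIs. Turnover carriers had a median of 2521 UMIs, against 2105 at a sum of 0. The ratio of medians was 1.14 in autonomy (1.06 to 1.25) and 1.20 in turnover (0.853 to 4.68). With barcodes at 0 weighted to the carriers' depth the autonomy ratio was 1.01, a value near 1 by construction that says nothing about depth. Mean UMIs were 3436 in autonomy carriers and 3702 at 0, and 4549 in turnover carriers and 4723 at 0. By deciles of total UMIs in the autonomy library, from shallow to deep, carriers numbered 8, 5, 6, 7, 4, 14, 14, 16, 19 and 7. The carriers thus peaked in the ninth decile, with 3537 to 5502 UMIs, and the last, with 5503 to 48875 UMIs, held 7. Genes detected per barcode after thinning had a median of 735 in autonomy carriers and 745 at 0, and of 679.5 in turnover carriers and 687 at 0. The median mitochondrial share was 2.40% in autonomy carriers and 2.46% at 0.

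The genes called higher in autonomy together with the 4 genes of the rule, 123 in all, made up 3.82% of the UMIs of autonomy carriers and 0.787% of those at a sum of 0. This was 104 UMIs per carrier above the level at 0, and 164 UMIs in carriers with a sum of 10 or more. In turnover carriers, 27 such genes held 59.4 UMIs per barcode above the level at 0. These genes were picked by the same comparison, so the amounts are descriptive.

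Few carriers lacked both Cd8a and Rag1. Of 100 autonomy carriers 3 had neither a Cd8a nor a Rag1 UMI, and of 14 turnover carriers none did (which allows a share of up to 23.2%, exact upper limit). One of the 3 held 54 UMIs of the macrophage sum among 1268, with 25 Cd74 and 19 Apoe UMIs, and another 32 among 1420, with 45 Cd74 UMIs. Neither had a Cd4 or Cd8b1 UMI or a receptor contig. The other, with a sum of 3 among 9070 UMIs, held 13 Il2ra UMIs and no Cd74 or Apoe. Below the depth of 1000 UMIs, 6 autonomy barcodes and 1 turnover barcode had a sum of 3 or more. Of these 5 autonomy barcodes and the turnover barcode lacked both genes, and all 7 lacked a receptor contig. Lacking these 2 genes did not mean lacking thymocyte RNA, since the autonomy barcode with a sum of 10 among 998 UMIs held 1 Cd4 and 1 Cd8b1 UMI.

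Taken at any depth, 6 autonomy barcodes with a sum of 10 or more lacked both Cd8a and Rag1, and 44 held at least one. The 6 had from 595 to 1420 UMIs with a median of 971.5, and the 44 from 1628 to 9804 with a median of 3234. The macrophage sum was alike, with a median of 26.5 in the 6 and 18.5 in the 44. As a share it was not, at 28.7 per 1000 UMIs in the 6 and 6.91 in the 44. The 123 genes higher in carriers made up 19.4% of UMIs in the 6 barcodes and, over all carriers with a sum of 10 or more, 5.44%. In UMIs above the level at a sum of 0 the amounts were 181 and 164 per barcode.

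Per barcode, the 6 held 16.8 UMIs of macrophage identity genes and the 44 held 17.1, against 4.36 at a sum of 0. Lysosomal genes had 31.8 UMIs per barcode in the 6 and 39.0 in the 44, against 10.4 at 0. Of DP genes the 6 held 1.33 UMIs per barcode and the 44 held 53.1, against 46.1 at 0. MHC class II genes went the other way, with 33.7 UMIs per barcode in the 6 and 18.7 in the 44. Both sets were chosen for a sum of 10 or more, the 6 for lacking Cd8a and Rag1 and the 44 for holding one of them, so like macrophage amounts and unlike DP amounts are largely set by the choice and support nothing.

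**Figure D4:**
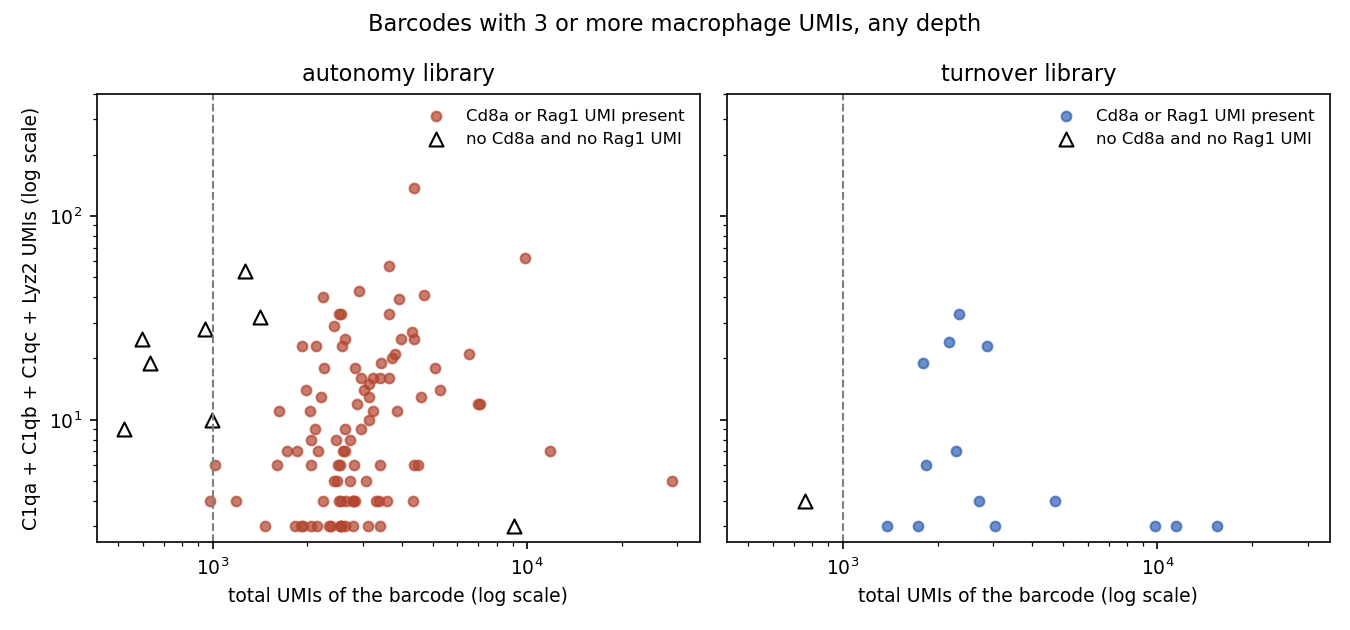
Summed UMIs of C1qa, C1qb, C1qc and Lyz2 (y axis, log scale) against total UMIs (x axis, log scale) for every barcode with a sum of 3 or more, autonomy on the left and turnover on the right; the dashed line is 1000 UMIs. Open triangles lack both Cd8a and Rag1, and in autonomy those with a sum of 10 or more lay between 595 and 1420 UMIs.

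The ratios of macrophage genes to each other were compared over the range of the sum. Per 100 UMIs of the sum, Apoe had 53.4 UMIs in barcodes with a sum of 1 or 2 (41.7 to 67.5), 61.9 at 3 to 9, 54.1 at 10 or more (50.02 to 58.5) and 48.8 in the 6 barcodes without Cd8a and Rag1 (38.8 to 60.6). Cd74 had 41.2 (31.0 to 53.8), 54.1, 44.7 (41.0 to 48.7) and 62.5 (51.1 to 75.7) in the same sets. The level at a sum of 0 was not subtracted. It would give 8.98 of the 54 Cd74 UMIs at 1 or 2, and 4.05 of the 532 at 10 or more. The intervals of Apoe overlapped over these 4 sets in autonomy. Other genes varied more. Lyz2 made up 22.1%, 16.8% (12.5 to 21.8), 33.9% (31.2 to 36.6) and 28.0% of the sum. Tyrobp had 19.1, 18.3, 7.56 and 11.9 UMIs per 100, and Fcer1g 19.1, 17.5, 10.3 and 8.33. The bands were cut on the sum, which is also the divisor, so part of a fall towards higher sums is built in. At 10 or more, single carriers held 76 and 41 of the 403 Lyz2 UMIs. Of the 6 barcodes without Cd8a and Rag1, 2 were also in the set at 10 or more. In turnover Apoe had 7.69 UMIs per 100 at a sum of 1 or 2 (1.59 to 22.5) and 40.4 at 10 or more (28.9 to 55.0), and Cd74 5.13 and 109. Fcer1g had 15.4 UMIs per 100 at a sum of 1 or 2 in turnover (5.65 to 33.5) and 8.08 at 10 or more (3.49 to 15.9), and H2-Aa 7.69 (1.59 to 22.5) and 40.4. Turnover barcodes with a sum of 1 or 2 thus held less Apoe, Cd74 and H2-Aa per UMI of the sum than those with 10 or more, while the intervals of Fcer1g overlapped. These turnover sets also differed in depth, with medians of 7830.5 UMIs at a sum of 1 or 2 and 2260 at 10 or more. The make-up of the sum differed too. Lyz2 gave 30 of its 39 UMIs at 1 or 2, and 29 of 99 in the 4 barcodes at 10 or more.

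Most carriers had a rearranged receptor. In the matched V(D)J library any contig was found for 88 of 100 autonomy carriers (80.0 to 93.6%) and 95.04% of barcodes at 0 (94.3 to 95.7). A productive TRB chain was found in 63% of autonomy carriers (52.8 to 72.4) and 72.9% of barcodes at 0 (71.5 to 74.2). A productive TRA chain was found in 45% of autonomy carriers (35.03 to 55.3) and 42.0% at 0 (40.5 to 43.6). In turnover a productive TRB chain was found in 10 of 14 carriers (71.4%, 41.9 to 91.6) and 88.7% at 0, and a productive TRA chain in 4 of 14 (28.6%, 8.39 to 58.1) and 41.7% at 0. Intervals of carriers held the shares at 0 for TRA in both libraries and for TRB in turnover. For TRB in autonomy the difference was -9.86 percentage points (-20.1 to -0.42), and its interval held 0 at sums of 5 or more (-22.6 to 0.776) and 10 or more (-20.9 to 7.60), by C1q alone (upper limit 0.446), with 2000 or more UMIs (3.03) and with a filter on genes and mitochondrial share (0.0208). Barcodes with TRB had a median of 17 TRB contig UMIs in autonomy carriers and 19 at 0.

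**Figure D5:**
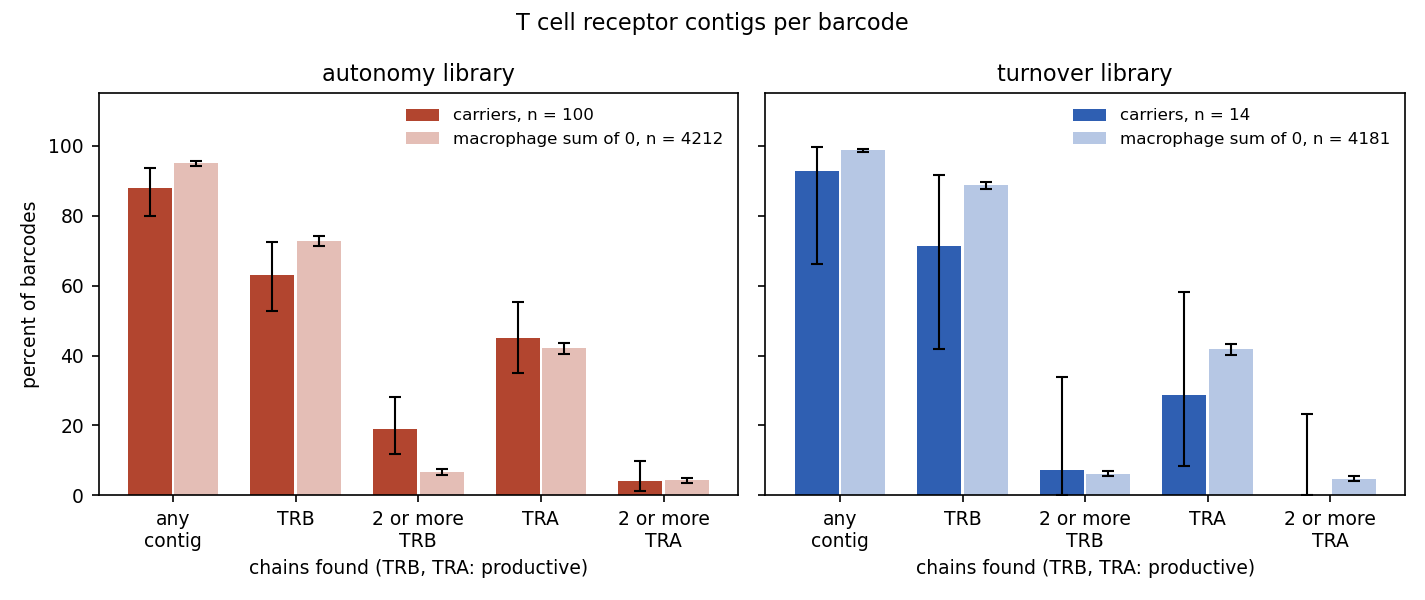
Percent of barcodes (y axis) with any receptor contig, with productive TRB or TRA chains and with 2 or more of them (x axis), carriers in dark and barcodes with a macrophage sum of 0 in light colours, autonomy on the left and turnover on the right; bars are exact 95% intervals for counting error. In autonomy 2 or more TRB chains were found in 19% of carriers and 6.62% of barcodes at 0.

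A second productive TRB chain was more frequent in autonomy carriers, at 19% (11.8 to 28.1) and 6.62% at a sum of 0 (5.89 to 7.42), or 7.76% when barcodes at 0 were weighted to the carriers' depth. In turnover it was found in 1 of 14 carriers (7.14%) and in 6.12% at 0, and that carrier was one of the 3 without C1q. Of the 19 autonomy carriers 14 held the same pair of chains, which was found in 174 autonomy barcodes, 151 of them with a sum of 0 and 9 with a sum of 1 or 2. Without that pair, 5% of autonomy carriers (1.64 to 11.3) and 3.04% of barcodes at 0 (2.54 to 3.603) had 2 or more TRB chains. The pair is shown because it carries most of the difference, with the CDR3 in DNA letters from 5′ to 3′. Capitals mark the bases between the stretch shared with at least 25% of this library's chains of the same V segment and the stretch so shared for the same J segment. TRB lies on chromosome 6.

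TRBV13-2 TRBJ2-4, in 191 barcodes and 14 carriers: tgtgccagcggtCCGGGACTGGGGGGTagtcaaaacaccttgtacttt

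TRBV29 TRBJ2-5, in 185 barcodes and 15 carriers: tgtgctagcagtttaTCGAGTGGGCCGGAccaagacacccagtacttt

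The 14 carriers with this pair averaged 9.36 Apoe UMIs (7.82 to 11.1) and the other 86 carriers 7.90 (7.31 to 8.51), and 6.43 and 6.83 Cd74 UMIs. Csf1r averaged 0.0714 UMIs in carriers with the pair (0.0018 to 0.398) and 0.453 in the others (0.322 to 0.620). The Csf1r value with the pair rests on 1 UMI, and its interval overlapped that of the others. Lyz2 averaged 6.07 UMIs with the pair (4.85 to 7.51) and 4.22 in the others (3.80 to 4.68), and Rag1 2.07 (1.39 to 2.97) and 3.895 (3.49 to 4.34). Of the 85 Lyz2 UMIs with the pair 41 lay in 1 carrier, so the Lyz2 gap rests on 1 barcode. Another carrier held 49 of the 131 Apoe UMIs with the pair. Barcodes at 0 with the pair averaged 2.11 Rag1 UMIs.

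A pair of TRB chains that occurred together in no other barcode was found in 6% of autonomy carriers (2.23 to 12.6) and 2.11% of barcodes at 0 (1.70 to 2.59). Pairs whose chains each occurred in other barcodes too were found in 3% of autonomy carriers (0.623 to 8.52) and 1.09% of barcodes at 0 (0.801 to 1.45). Such combinations are shown for the following carriers, and 1 of them held the frequent pair as well.

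Carrier with a sum of 21 among 6540 UMIs, TRBV13-2 TRBJ2-3, in 36 barcodes: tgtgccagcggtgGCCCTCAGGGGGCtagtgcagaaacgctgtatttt

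The same carrier, TRBV2 TRBJ2-5, in 8 barcodes: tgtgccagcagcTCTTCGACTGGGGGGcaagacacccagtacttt

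Carrier with a sum of 12 among 7098 UMIs, TRBV12-2 TRBJ2-7, in 21 barcodes: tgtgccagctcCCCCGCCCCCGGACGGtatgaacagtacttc

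The same carrier, TRBV13-3 TRBJ2-4, in 4 barcodes: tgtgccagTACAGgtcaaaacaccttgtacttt

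Carrier with a sum of 14 among 5289 UMIs and with the frequent pair, TRBV19 TRBJ2-7, in 9 barcodes: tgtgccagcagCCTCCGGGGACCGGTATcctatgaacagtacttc

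These 3 carriers were deep, with 6540, 7098 and 5289 UMIs against a carrier median of 2770.5. Some chains rest on few contig UMIs. In the first carrier TRBV13-2 had 23 and TRBV2 6, and in the second TRBV13-3 had 18 and TRBV12-2 5. In the third TRBV19 had 17, beside 15 and 32 for the frequent pair. Whether the chains came from separate cells was not tested.

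Carriers came from many receptor chains. In autonomy 33 of 42 different TRB chains of carriers were also found in barcodes with a sum of 0, and in turnover 0 of 11 were. In the autonomy library 85.1% of barcodes at 0 with a TRB chain shared a chain with another barcode, and in turnover 4.34% did. Among the chains found in at least 50 autonomy barcodes the share of carriers ran from 0 of 51 and 0 of 53 barcodes to 8.11% of 185 (4.61 to 13.02). It was 2.10% of 143 barcodes for TRBV3 TRBJ2-2 and 1.59% of 502 barcodes whose chains occurred once (0.690 to 3.12). Barcodes with no productive TRB were carriers in 3.07% of 1207 cases.

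Sex-linked transcripts were compared in autonomy, where both kinds of cell were present. Xist and a Y-linked transcript were found together in 2 of 100 carriers (2%, 0.243 to 7.04) and in 0.522% of barcodes at 0 (0.328 to 0.790), a difference whose interval held 0 (-0.279 to 6.52 percentage points). After thinning, 0 of 100 carriers (upper limit 3.62%) and 0.095% of barcodes at 0 held both. Xist alone was found in 33% of carriers (23.9 to 43.1) and 40.5% of barcodes at 0 (39.0 to 42.0). A Y-linked transcript alone was found in 32% of carriers (23.02 to 42.1) and 20.8% at 0 (19.6 to 22.1).

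Whether a carrier is a macrophage with an engulfed thymocyte, a droplet of 2 cells, or a thymocyte with macrophage fragments or free RNA was not tested, and these sources cannot be told apart by the counts alone.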

How the data were processed

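The tables held counts of UMIs per gene and barcode, deposited by the authors. The submitters' processing notes name Cell Ranger 3.0.2, Seurat 3.1.3.9002 and the mouse build mm10. Cell calling, annotation and V(D)J reference are not given in the sources used here. Contigs came with deposited UMI counts, segment calls and productive calls and were joined by barcode within a condition, and a chain was a nucleotide CDR3 with its V and J. No normalisation preceded deposit as far as the whole-number values show.

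Barcodes needed 1000 UMIs, and carriers 3 UMIs of C1qa, C1qb, C1qc and Lyz2. No doublet caller was run and no barcode was removed. UMIs were summed per set and divided by the set's total (CPM). Ratios carry conditional exact binomial intervals, shares Clopper-Pearson intervals, means exact Poisson intervals and the ratio of carrier shares a log-normal interval. Genes needed 20 UMIs over both sets, or, in an alternative chosen after the data were seen, 20 UMIs observed or expected in carriers. Named were the rule genes, given markers, Cd8a, Rag1, sex-linked genes, the 12 highest and 12 lowest genes in autonomy, the 6 highest and lowest between libraries, the 10 genes most like the sum, and members of each list; others were named after their values were seen. Members and lists were chosen with earlier results of these data known. TMM factors (edgeR, scaling only) shifted log2 ratios by -0.09 in autonomy and -0.27 in turnover. The gene comparison was tested on simulated data in which all UMIs were independent. That test does not cover UMIs clumped in a few barcodes. Software: edgeR 4.0.16 under R 4.3.3; scipy 1.17.1, pandas 2.3.3, numpy 2.4.6 and matplotlib 3.10.9 under Python 3.11.15.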

Additional observations from a re-analysis of the deposited data

Results flagged for a closer look

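Below the depth of 1000 UMIs, in barcodes that the comparisons did not use, 6 autonomy barcodes held 3 or more UMIs of C1qa, C1qb, C1qc and Lyz2, which is a signal outside the main measurement. Of these, 5 had neither a Cd8a nor a Rag1 UMI and all 6 lacked a receptor contig. Turnover had 1 such barcode, with a sum of 4 among 759 UMIs.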

How the results depend on the processing

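In 310 recomputed values for 45 results no ratio called at 2-fold turned its direction, while the uncalled Cd8a and Rag1 ratios crossed 1 under some settings. The cause of each change below was not tested. Carrier shares in autonomy were 2.92%, 1.63% and 1.04% at thresholds of 2, 5 and 10 UMIs and 1.31% after thinning. In turnover they were 0.142% and 0.0946% at 5 and 10 UMIs and 0.142% after thinning. The autonomy median UMI ratio was 1.32 at 10 UMIs. Weighted by depth it was 1.01, which that weighting sets near 1 in advance. Rag1 in autonomy was at 1.498 with barcodes of 2000 or more UMIs and 1.06 without the top of the depth range, where Cd8a was at 0.872. In turnover Cd8a was at 1.41 and 1.18 at 5 and 10 UMIs, 1.003 by C1q alone, 0.953 with 2000 UMIs, 0.578 without the deepest barcodes and 1.04 without carriers lacking C1q. Rag1 in turnover was at 2.23 at 5 UMIs and 0.776 without the deepest barcodes. Counts of genes followed the minimum. In autonomy 312, 1350 and 119 were higher and 730, 2537 and 57 lower with 100 UMIs, 5 UMIs and 20 UMIs in carriers, and 2450 lower at a sum of 10. In turnover 23 were higher and 14 lower with 20 UMIs in carriers, and 2377, 6995 and 7647 lower with 100 UMIs and at sums of 5 and 10. Between libraries 89 were higher and 23 lower with 100 UMIs, and 461 higher at a sum of 10. The difference in productive TRB stayed below 0 throughout. That in 2 or more TRB chains was 12.4 points in autonomy, and 2.66 (-1.24 to 9.90) without the frequent pair. In turnover it was 1.02 points, and -6.12 at sums of 5 and 10, by C1q alone and without carriers lacking C1q. The minimum in carriers and the sets without C1q-lacking carriers, shared barcodes, the frequent TRB pair or the 3 barcodes with Cd74 were chosen after the data were seen. No paired analysis was possible because each condition had 1 library per assay and the results come from no test. With 14 turnover carriers, depth limits most gene ratios there.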
